A study of Mus musculus with 12 samples.

Results

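Pou5f1, Sox2, Sall4, Lin28a, Dppa2, Dppa4, Dppa5a and Utf1 are genes whose expression marks pluripotent cells of the early mouse embryo and the embryonic stem cells (ESCs) derived from it. They were taken by name from the deposited gene tables, where all 8 were found among 25759 genes in each of 12 RNA-seq libraries. The cells were HATX3 ESCs, a line of haploid origin that became diploid in culture and in which doxycycline switches on Xist from its own locus. Wild-type cells (WT 1, 2 and 3) and 3 clones with a CRISPR/Cas9 deletion around the Cdk8 start codon (ΔCdk8 clones 8, 11 and 15) were sequenced in uninduced conditions and after 48 h of Xist expression, which gave 4 groups of 3 libraries. All cells therefore carry the inducible Xist system, and only the induced groups received doxycycline. The ΔCdk8 clones were isolated by limiting dilution, so that a clone stands for 1 line and not for the genotype as a whole. The wild-type cells are the parental line, which the paper describes as polyclonal and possibly holding some differentiated cells. Loss of Cdk8 and cloning therefore cannot be told apart in the comparisons of genotypes. Nothing in the sample descriptions says whether the wild-type libraries came from separate cultures. The p-values of the unpaired comparisons of groups measure the spread between these samples. In tests with pairs or among clones they measure what remains once line and induction are fitted, not the spread between cultures of a line.

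Pou5f1 encodes OCT4, a POU-domain factor that pairs with the HMG-box factor SOX2 on DNA to hold cells in the pluripotent state. Around this pair act SALL4, a zinc finger factor that binds with OCT4 at many ESC enhancers, UTF1, a chromatin-associated factor expressed from an OCT4- and SOX2-bound enhancer, and LIN28A, an RNA-binding protein that blocks maturation of let-7 microRNAs. DPPA2 and DPPA4 are SAP-domain proteins that work as a pair at CpG-rich promoters and activate genes of the early embryo, and DPPA5A is a KH-domain protein found in pluripotent and germ cells. ESCs can move between a naive state, which resembles the preimplantation epiblast, and a primed state, which resembles the epiblast after implantation, and many of these genes are expressed in both.

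The libraries held between 22170087 and 60798578 reads counted on genes. After induction, the median log2 TPM ratio to uninduced wild-type over 428 X-linked genes was between -1.90 and -1.49 in the wild-type libraries and between -0.79 and -0.45 in the ΔCdk8 libraries. Cdk8 was 64.2, 69.4 and 74.2 TPM in uninduced wild-type 1, 2 and 3 and 34.4, 56.8 and 85.3 TPM in uninduced clones 8, 11 and 15, and after induction 51.6, 51.5 and 53.1 TPM and 33.4, 57.8 and 84.9 TPM. Clone 15 thus lay above every wild-type library and clone 8 below. TPM rests on exon reads, and 70.4% to 96.4% of the reads counted on Cdk8 lay in introns. On all these reads the edgeR log2 fold change of ΔCdk8 against wild-type was 0.32 ± 0.24 (SE) in uninduced and -0.65 ± 0.65 in induced cells. The deposited values are sums over the gene and do not separate reads on the deleted stretch around the start codon from reads elsewhere. The genotype of the libraries was therefore not checked by them. The paper reports that the deletions were sequenced and that western blot detected no Cdk8 protein in these same clones. Cdk19, the paralogue of Cdk8, lay between 4.75 and 9.46 TPM in uninduced wild-type cells and between 7.8 and 12.4 TPM in the uninduced clones.

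On GRCm38, the build of the deposited tables, the genes lie on 7 chromosomes. Dppa4 (chr16:48283735-48294292) and Dppa2 (chr16:48310477-48319723) are neighbours on the plus strand, and Sox2 (chr3:34650405-34652461) is a gene of 1 exon inside the longer noncoding gene Sox2ot. The others are Pou5f1 (chr17:35506018-35510772) and Utf1 (chr7:139943789-139945112) on the plus strand, and Lin28a (chr4:134003330-134018841), Sall4 (chr2:168748332-168767943) and Dppa5a (chr9:78367052-78368177) on the minus strand. Between 67.2% and 76.3% of the exon reads of Pou5f1 mapped uniquely, against 99.87% to 99.98% for Dppa5a and 100% for the others. Of the windows of read length in Dppa2 transcripts, 21.0% also occur in the locus Gm9788 and 9.34% in Gm8023, and 11.6% of those of Dppa4 occur in Gm14058, although all of their exon reads were counted as unique. Lin28a, Pou5f1 and Sall4 each overlap a gene on the opposite strand. The library kit keeps strand, but the strand setting used for counting is not given in the sources used here.

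RefSeq promoters (GRCm38.p6) were found for 4 of the 8 members, and the 250 bases before the annotated start are shown for these 4. They include Lin28a, the member with the largest difference between genotypes, and Utf1, the one with the largest difference between clones. Capitals mark matches, on either strand, to the GC box GGGCGG or to the SOX motif CATTGT. Each window ends at a RefSeq start, which for Sox2 lies upstream of the gene start in the deposited tables, and the first of the Pou5f1 starts in RefSeq is used.
Lin28a, chr4:134018817-134019066, - strand: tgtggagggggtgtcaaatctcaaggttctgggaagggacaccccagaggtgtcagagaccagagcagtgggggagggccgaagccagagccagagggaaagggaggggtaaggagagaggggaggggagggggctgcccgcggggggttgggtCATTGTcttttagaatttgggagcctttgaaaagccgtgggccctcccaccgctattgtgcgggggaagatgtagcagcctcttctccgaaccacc
Sox2, chr3:34649745-34649994, + strand: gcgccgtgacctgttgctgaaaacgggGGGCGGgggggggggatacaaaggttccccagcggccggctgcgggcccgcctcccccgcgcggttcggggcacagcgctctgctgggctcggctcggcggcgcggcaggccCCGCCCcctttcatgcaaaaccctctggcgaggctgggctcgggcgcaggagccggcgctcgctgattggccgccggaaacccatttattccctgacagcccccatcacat
Utf1, chr7:139943606-139943855, + strand: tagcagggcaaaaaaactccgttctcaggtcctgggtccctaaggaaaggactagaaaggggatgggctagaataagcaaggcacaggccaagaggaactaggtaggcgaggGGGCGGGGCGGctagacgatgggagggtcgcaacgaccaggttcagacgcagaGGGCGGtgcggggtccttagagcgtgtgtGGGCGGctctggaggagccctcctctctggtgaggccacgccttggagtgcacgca
Pou5f1, chr17:35505782-35506031, + strand: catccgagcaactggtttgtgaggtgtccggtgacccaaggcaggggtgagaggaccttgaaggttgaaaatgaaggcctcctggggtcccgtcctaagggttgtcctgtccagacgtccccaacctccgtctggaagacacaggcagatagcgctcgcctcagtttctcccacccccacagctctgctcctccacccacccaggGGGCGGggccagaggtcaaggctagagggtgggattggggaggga
The Utf1 window held 4 GC boxes, of which the first pair overlap by 1 base, at 138 to 51 bases before the start. Sox2 held 2 GC boxes and Pou5f1 held 1, whereas Lin28a held no GC box and 1 SOX motif. The window of the other Pou5f1 start, not printed, held 1 SOX motif on the minus strand, 158 to 153 bases before that start. Of 32851 mouse promoters searched over the same length, 32.7% held a GC box and 10.7% a SOX motif. The octamer ATGCAAAT, present in 1.6% of promoters, and the OCT-SOX composite motif, present in 0.00609%, had no match in the windows of these members. A match is a stretch of letters and not a measured binding site.

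Together the members made up 0.441% to 0.743% of all transcripts in a library, as summed TPM (a level corrected by the authors for exon length and for depth, so that genes can be compared). Dppa5a had the highest TPM and Pou5f1 the next in each of the 12 libraries. In uninduced wild-type cells Dppa5a averaged 2715 ± 1603 TPM (mean ± s.d., n = 3), and Pou5f1 averaged 1250.45 ± 139.8 TPM. Lin28a followed with 427 ± 114 TPM. Some neighbours after it did not separate beyond the spread: Utf1 averaged 358 ± 117 TPM and Dppa4 317 ± 53.2 TPM, and Utf1 exceeded Dppa4 in 2 of 3 libraries. Likewise, Sox2 averaged 212 ± 35.6 TPM and Dppa2 190.5 ± 8.49 TPM, and Sox2 exceeded Dppa2 in 2 of 3 libraries. Dppa4 lay above Sox2, and Dppa2 above Sall4, with no overlap between their ranges. Sall4 was the lowest in this group at 135 ± 39.5 TPM. In uninduced ΔCdk8 cells Lin28a held another place in the order, below Utf1, Sox2 and Dppa4. Over the 12 libraries, the ratio of the highest to the lowest TPM was smallest for Dppa4, at 1.91, and largest for Utf1, at 7.73.

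**Figure D1:**
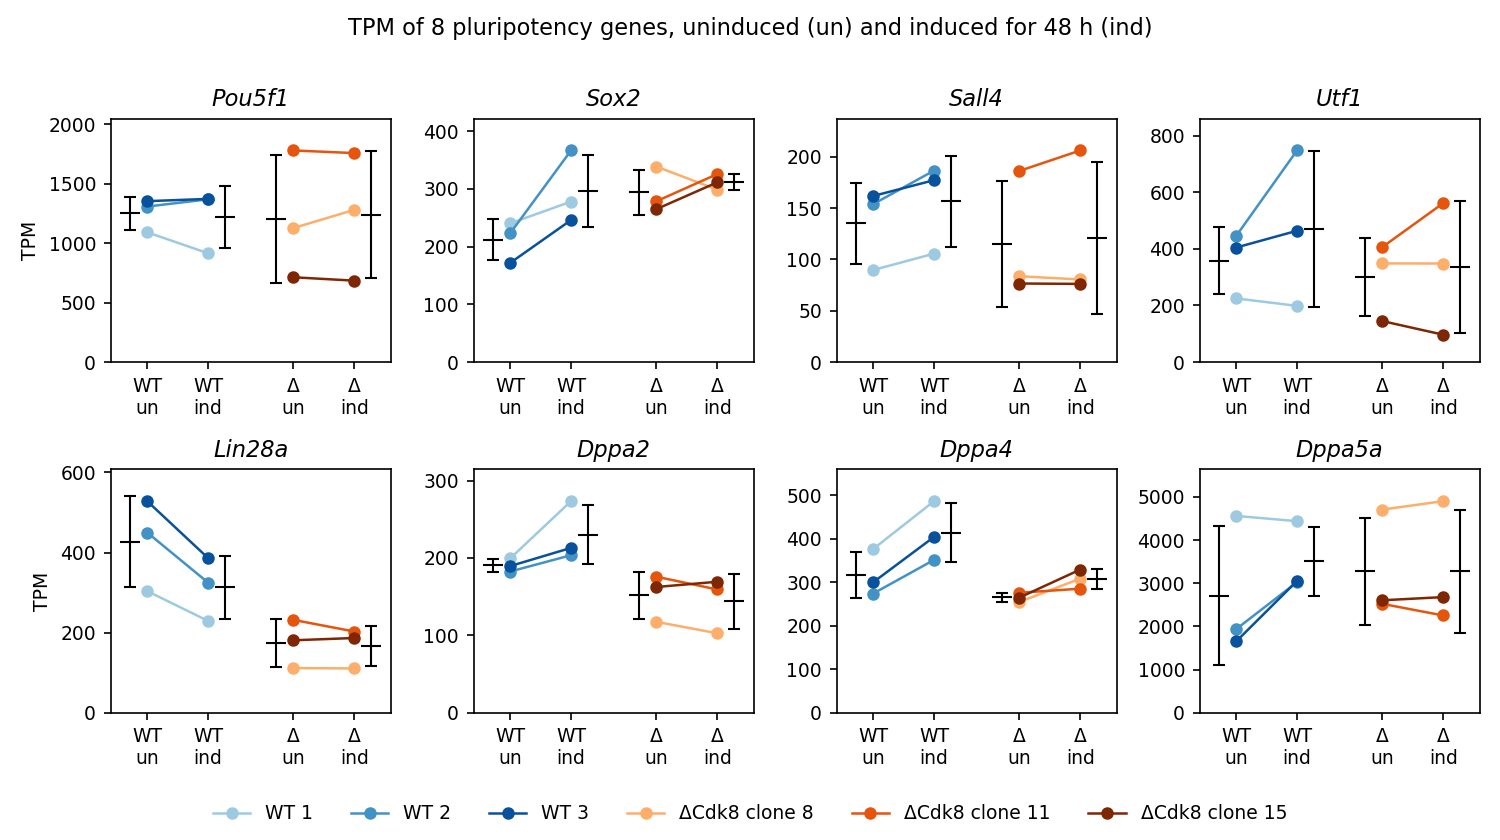
TPM of each member on a linear axis from 0, in uninduced (un) and induced (ind) wild-type (WT) and ΔCdk8 (Δ) cells; points are libraries, lines join libraries of the same WT number or clone, and black bars give the mean and s.d. of 3 libraries. The 3 uninduced ΔCdk8 points of Lin28a, from 112 to 232 TPM, lie below the 3 uninduced wild-type points, from 304 to 528 TPM, whereas Pou5f1 spans 713 to 1779 TPM among the uninduced clones.

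Whether loss of Cdk8 alters these genes before Xist is induced was addressed by comparing uninduced ΔCdk8 with uninduced wild-type cells. Lin28a showed the largest difference of the 8 genes, and the remaining transcription factors and DPPA genes differed by at most 1.39-fold in the fitted means. In wild-type 1, 2 and 3, Lin28a was 304, 450.0 and 528 TPM, and in clones 8, 11 and 15 it was 112, 232 and 181 TPM. All ΔCdk8 libraries thus lay below all wild-type libraries. The fitted mean was 2.68-fold lower, a log2 fold change of -1.42 ± 0.34 (SE), with an edgeR adjusted p of 0.140. DESeq2 gave -1.44 with an adjusted p of 0.00306, and over all settings other than leaving out a library the adjusted p lay between 0.00306 and 0.274, so that the call for Lin28a depends on the tool. In bulk RNA, fewer cells that express a gene and less RNA per cell cannot be told apart.

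Dppa2 was 199, 183 and 189.5 TPM in wild-type cells and 117, 176 and 162 TPM in clones 8, 11 and 15. Its ranges did not overlap either, with the clones lower by -0.47 ± 0.20 on the log2 scale (edgeR adjusted p = 0.244). Its partner Dppa4 was 376, 274 and 300.0 TPM in wild-type cells and 255, 276 and 265 TPM in the clones. Those ranges overlapped, and the log2 fold change was -0.38 ± 0.17 (edgeR adjusted p = 0.250).

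Sox2 was the member with every clone above every wild-type library. It was 240.2, 223 and 172 TPM in wild-type 1, 2 and 3 and 339, 278 and 265 TPM in clones 8, 11 and 15. The log2 fold change was 0.32 ± 0.18 with an edgeR adjusted p of 0.345, so the difference did not pass the test. Leaving out 1 library moved it to between 0.17 and 0.43. Chromosome 3, on which Sox2 lies, itself differed between clones: over 529 genes the median log2 TPM ratio to uninduced wild-type was 0.63 in clone 8, -0.04 in clone 11 and 0.84 in clone 15. The medians over 11351 autosomal genes were 0.13, -0.03 and 0.20 in the same clones. The part of chromosome 3 in the Sox2 values was not tested.

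Pou5f1 was 1091, 1308 and 1353 TPM in wild-type cells and 1126, 1779 and 713 TPM in clones 8, 11 and 15, so that the clones lay on both sides of wild-type. Its log2 fold change was -0.17 ± 0.36 (edgeR adjusted p = 0.799). On uniquely mapped reads alone it was also -0.17, with a SE of 0.37. Sall4 was 89.7, 154 and 162 TPM in wild-type cells and 83.6, 186 and 76.5 TPM in the clones, with a log2 fold change of -0.33 ± 0.43 (edgeR adjusted p = 0.664). These differences were smaller than their standard errors. Utf1 was 225, 445 and 404 TPM in wild-type cells and 348, 406 and 145 TPM in the clones, a log2 fold change of -0.38 ± 0.44 (edgeR adjusted p = 0.623). Dppa5a was 4558, 1936 and 1651 TPM in wild-type cells and 4705, 2522 and 2605 TPM in the clones (0.11 ± 0.42, edgeR adjusted p = 0.898). For each of these 4 genes the ranges of the genotypes overlapped, and 1 clone moved the value: Sall4 was -1.0 without clone 11 and -0.060 without clone 15, and Utf1 was -0.77 and -0.018.

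A gene was called where it passed the threshold of the study, which asks for more than a 2-fold change with an adjusted p below 0.01. In uninduced cells edgeR called 0 of 8 members and 0 of 14646 genes tested (0.0% in either direction), limma called 0 members, and DESeq2 called 1, Lin28a, where it called 1.8% of all genes higher and 0.833% lower. At an unadjusted p under 0.05, edgeR gave 0 members higher and 2 lower (Lin28a and Dppa2), against 11.9% of all genes higher and 8.49% lower. With scaling by library size alone and with limma there was 1 member higher and 1 lower, on exon or intron reads 0 and 1, and with DESeq2, its size factors in edgeR or all 12 libraries in 1 fit 0 and 3. Of the members, 1 was higher in every clone than in every wild-type library, as were 16.3% of all genes tested, and 2 were lower, as were 6.79%. The median log2 fold change was -0.35 over the members and 0.03 over all genes tested. Without clone 15 the members' median was -0.039 and without clone 11 it was -0.69. Members lower at an unadjusted p under 0.05 numbered 5 without clone 11, 2 without wild-type 2 and 1 when any of the other 4 libraries was left out.

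After 48 h of Xist expression, ΔCdk8 cells were compared with wild-type cells in the same way. All 8 members had a fitted mean below wild-type, with a median log2 fold change of -0.54 beside 0.03 over all genes tested, although Pou5f1 and Sox2 lay above wild-type when libraries were scaled by size alone, as did Sox2 with limma and Dppa5a on intron reads. The members' median was -0.16 without clone 15, -0.80 without clone 11 and -0.34 without wild-type 2. Lin28a was 229, 325 and 386 TPM in induced wild-type 1, 2 and 3 and 111, 203 and 187 TPM in induced clones 8, 11 and 15. The ranges did not overlap, and the log2 fold change was -1.08 ± 0.31 (edgeR adjusted p = 0.0970). With DESeq2 the adjusted p was 0.0155, short of the threshold, and over all such settings it lay between 0.0155 and 0.218.

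Dppa2 was 273, 204 and 213 TPM in induced wild-type cells and 103, 159 and 169 TPM in the induced clones. Its log2 fold change was -0.83 ± 0.22 (edgeR adjusted p = 0.0850). Dppa4 was 487, 351 and 404 TPM in induced wild-type cells and 308, 285 and 329 TPM in the induced clones, with a log2 fold change of -0.58 ± 0.15 (edgeR adjusted p = 0.0836). For both neighbouring genes every induced clone lay below every induced wild-type library.

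For the other 5 members the induced groups overlapped. Utf1 differed by -0.61 ± 0.70, Sall4 by -0.50 ± 0.48 and Dppa5a by -0.25 ± 0.30 on the log2 scale. Leaving out 1 library moved Utf1 to between -1.30 (without clone 11) and -0.090 (without wild-type 2), Sall4 to between -1.26 (without clone 11) and -0.19 (without clone 15), and Dppa5a to between -0.66 (without clone 8) and -0.060 (without clone 15). Pou5f1 differed by -0.10 ± 0.40 and Sox2 by -0.09 ± 0.20, and both changed sign with 1 library left out, Pou5f1 to 0.24 without clone 15 and Sox2 to 0.11 without wild-type 2. The lowest edgeR adjusted p of these 5 was 0.521, for Sall4. Of the 8 members, edgeR, limma and DESeq2 each called 0, against 0.0% of 14143 genes in either direction with edgeR, and 3.83% higher and 1.98% lower with DESeq2. At an unadjusted p under 0.05 edgeR gave 3 members, all lower, against 1561 of the 14143 genes lower and 14.9% higher. Non-overlapping lower ranges were seen for 3 members and for 10.1% of all genes tested.

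**Figure D2:**
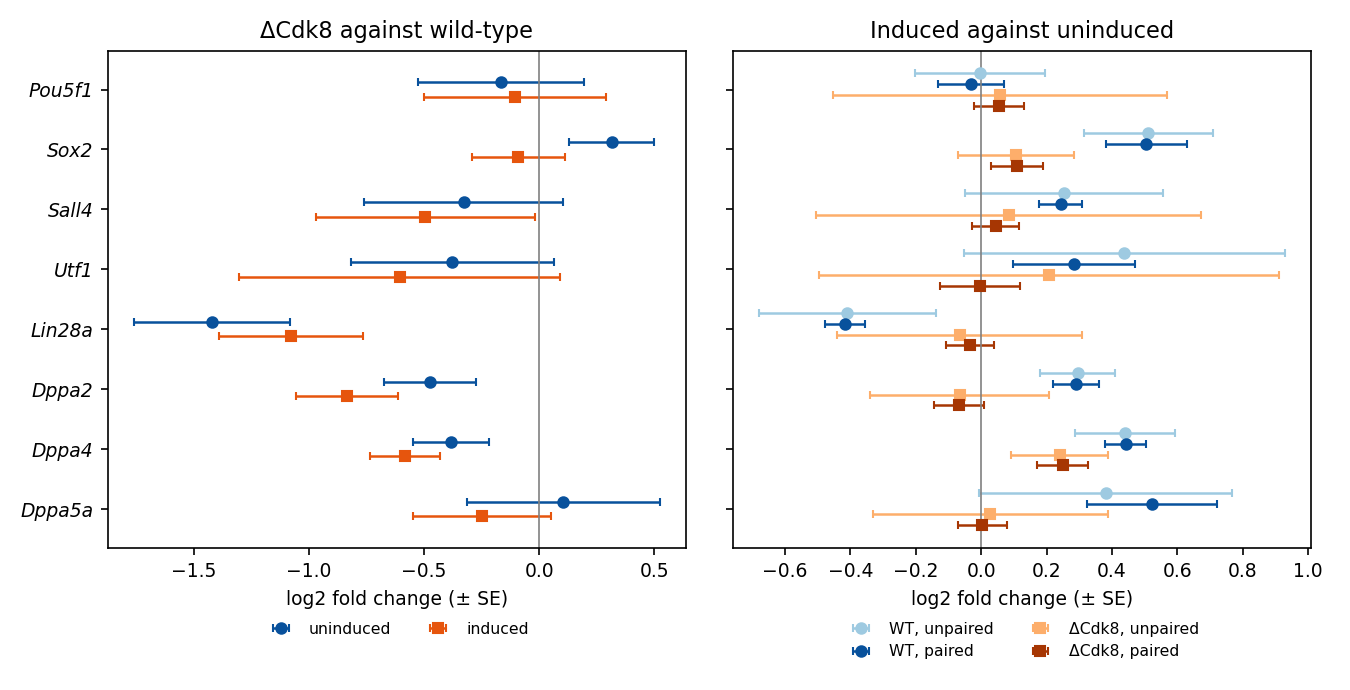
Fitted log2 fold changes (edgeR, ± SE) of the members, left for ΔCdk8 against wild-type in uninduced (circles) and induced cells (squares), and right for induced against uninduced cells of each genotype, unpaired and with libraries paired by WT number or clone. Lin28a lies farthest from 0 on the left, at -1.42 and -1.08, and pairing narrows the error bars on the right.

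Next, induced and uninduced cells were compared within each genotype, which asks whether the members change with Xist expression. Libraries of the same WT number or the same clone deviated together from their group means, so that values with the pair as a block are given beside the unpaired ones. The clones, wild-type numbers and libraries are the same ones used for the genotype comparisons, and the results are not independent of them. In wild-type cells Lin28a was lower after induction in each pair, from 304 to 229 TPM in wild-type 1, from 450.0 to 325 TPM in wild-type 2 and from 528 to 386 TPM in wild-type 3. The log2 fold change was -0.41 ± 0.27 unpaired (edgeR adjusted p = 0.443) and -0.42 ± 0.06 paired (edgeR adjusted p = 0.00907), a 1.34-fold difference that is below the fold limit of a call. Over all settings other than leaving out a library it lay between -0.45 and -0.017. Leaving out a library moved the unpaired value to between -0.63 and -0.23.

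Dppa4 was higher after induction in each wild-type pair, from 376 to 487, from 274 to 351 and from 300.0 to 404 TPM. Its log2 fold change was 0.44 ± 0.15 unpaired (edgeR adjusted p = 0.164) and 0.44 ± 0.06 paired (edgeR adjusted p = 0.00798). Dppa2 went from 199 to 273, from 183 to 204 and from 189.5 to 213 TPM, and Sox2 from 240.2 to 278, from 223 to 367 and from 172 to 246 TPM. The induced values of these last genes all lay above the uninduced ones. The paired log2 fold changes were 0.29 ± 0.07 for Dppa2 (edgeR adjusted p = 0.0341) and 0.51 ± 0.12 for Sox2 (edgeR adjusted p = 0.0353).

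Sall4 was 106, 187 and 177 TPM in induced wild-type cells, each above its uninduced partner, with a paired log2 fold change of 0.24 ± 0.07 (edgeR adjusted p = 0.0468). Pou5f1 was 915, 1368 and 1372 TPM after induction and showed the smallest difference, -0.03 ± 0.10 paired. Utf1 was 198, 747 and 464 TPM and Dppa5a 4436, 3026 and 3053 TPM after induction, and for both genes wild-type 1 was lower and the other pairs higher than uninduced. Their paired log2 fold changes were 0.28 ± 0.19 and 0.52 ± 0.20, with edgeR adjusted p of 0.308 and 0.111.

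Without pairing, edgeR called 0 of 8 members in wild-type cells, against 0.15% of 14006 genes higher and 1.01% lower, and gave 3 members at an unadjusted p under 0.05, all higher (Sox2, Dppa4 and Dppa2), against 10.8% of all genes higher and 10.4% lower. This count was 0 without uninduced wild-type 2 or 3 and with limma, 1 without induced wild-type 3 and on intron reads, and 2 or 3 higher otherwise without pairing. Without uninduced wild-type 1, Lin28a was in addition lower at that p, and the 3 higher were Sox2, Dppa4 and Dppa5a. DESeq2 and limma called 0 members, where DESeq2 called 1.59% of all genes higher and 3.14% lower. The paired fit also called 0 members and called 1.47% of all genes higher and 2.48% lower. With no fold limit and an adjusted p under 0.05, the paired fit gave 4 members higher and 1 lower, against 12.2% and 10.8% of all genes. Induced and uninduced ranges did not overlap for 2 members, both higher, against 12.1% of all genes higher and 14.2% lower.

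In ΔCdk8 cells Dppa4 was the member whose induced and uninduced ranges did not overlap. It was 255, 276 and 265 TPM in uninduced and 308, 285 and 329 TPM in induced clones 8, 11 and 15, and 1.63% of all genes were likewise higher in every induced clone. Its log2 fold change was 0.24 ± 0.15 unpaired (edgeR adjusted p = 1) and 0.25 ± 0.08 paired (edgeR adjusted p = 0.0457). The other 7 members had paired log2 fold changes between -0.07 (Dppa2) and 0.11 (Sox2). Lin28a went from 112 to 111 TPM in clone 8, from 232 to 203 TPM in clone 11 and from 181 to 187 TPM in clone 15, a paired log2 fold change of -0.03 ± 0.07.

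Pou5f1 was 1280, 1757 and 684 TPM in induced clones 8, 11 and 15 and kept the order of the uninduced clones. Sox2 was 299, 326 and 311 TPM, within the uninduced range. Unpaired, edgeR called 0 of 8 members and 0 of 14832 genes (0.0% in either direction), and gave 0 members at an unadjusted p under 0.05, against 0.553% of all genes higher and 2.09% lower. DESeq2 and limma called 0 members, where DESeq2 called 0.0% of all genes higher and 0.243% lower. The paired fit called 0 members, 0.135% of all genes higher and 1.27% lower. With no fold limit and an adjusted p under 0.05, the paired fit gave 1 member, Dppa4, against 5.6% of all genes higher and 6.16% lower.

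The difference between genotypes in the response to induction was tested as an interaction. Without pairing edgeR, DESeq2 and limma called 0 of 8 members (edgeR 0.0% of 15137 genes), with 0 members at an unadjusted p under 0.05, against 2.68% of all genes higher and 1.2% lower. DESeq2 called 0.205% of all genes higher and 0.0132% lower. With pairing, the interaction for Lin28a was 0.40 ± 0.09 on the log2 scale (edgeR adjusted p = 0.0356), where a positive value means that induced minus uninduced was higher in ΔCdk8 than in wild-type cells. That of Dppa2 was -0.34 ± 0.10 (edgeR adjusted p = 0.0847) and that of Sox2 -0.37 ± 0.16 (edgeR adjusted p = 0.195). At an adjusted p under 0.05 with no fold limit, Lin28a was the member that passed, against 3.55% of all genes in its direction and 2.45% in the other. The paired interaction called 0 members, 0.78% of all genes higher and 0.218% lower.

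Differences among the clones were tested over the 6 ΔCdk8 libraries with induction as a covariate, the induced and uninduced library of a clone standing for that clone. No clone had a repeat library in the same condition, so these p-values do not measure the spread between cultures of a clone. Of the 8 members, 4 passed the threshold for a difference between at least 2 clones, Pou5f1, Sall4, Utf1 and Lin28a, against 25.5% of 15298 genes tested; DESeq2 also called 4, against 22.3% of all genes. At an adjusted p under 0.05 with no fold limit, 7 members differed, against 71.2% of all genes. Clone 11 was the highest for each of these 4 genes. Utf1 was 4.87-fold higher in clone 11 than in clone 15, a log2 difference of 2.29 ± 0.16 (edgeR adjusted p = 9.25e-09). It was 348 and 348 TPM in uninduced and induced clone 8, 406 and 561 TPM in clone 11, and 145 and 96.6 TPM in clone 15.

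Sall4 set clone 11 apart from both other clones, by 1.44 ± 0.09 against clone 8 and 1.65 ± 0.09 against clone 15 on the log2 scale. Its induced values were 80.5, 206 and 76.2 TPM in clones 8, 11 and 15. Pou5f1 ordered all 3 clones: clone 11 was 0.73 ± 0.09 above clone 8, and clone 8 was 0.89 ± 0.09 above clone 15 on the log2 scale. The share of uniquely mapped exon reads of Pou5f1 was lowest, 67.2%, in induced clone 15. Lin28a ordered the clones differently, with clone 8 the lowest, 1.14 ± 0.09 below clone 11 and 0.61 ± 0.09 below clone 15.

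Dppa5a had its highest level in clone 8, at 4705 and 4900.3 TPM, and clones 11 and 15 lay 0.84 ± 0.09 and 0.98 ± 0.09 below it on the log2 scale, which is 1.79-fold and 1.97-fold and under the fold limit. Its induced values in clones 11 and 15 were 2253 and 2679 TPM, which differ from each other by 0.14 ± 0.09 (edgeR adjusted p = 0.210). Dppa2 differed by at most 0.78 between clones. Sox2 differed by at most 0.36 (edgeR adjusted p = 0.00548) and Dppa4 by at most 0.20 (edgeR adjusted p = 0.0936), both for clone 11 against clone 15.

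**Figure D3:**
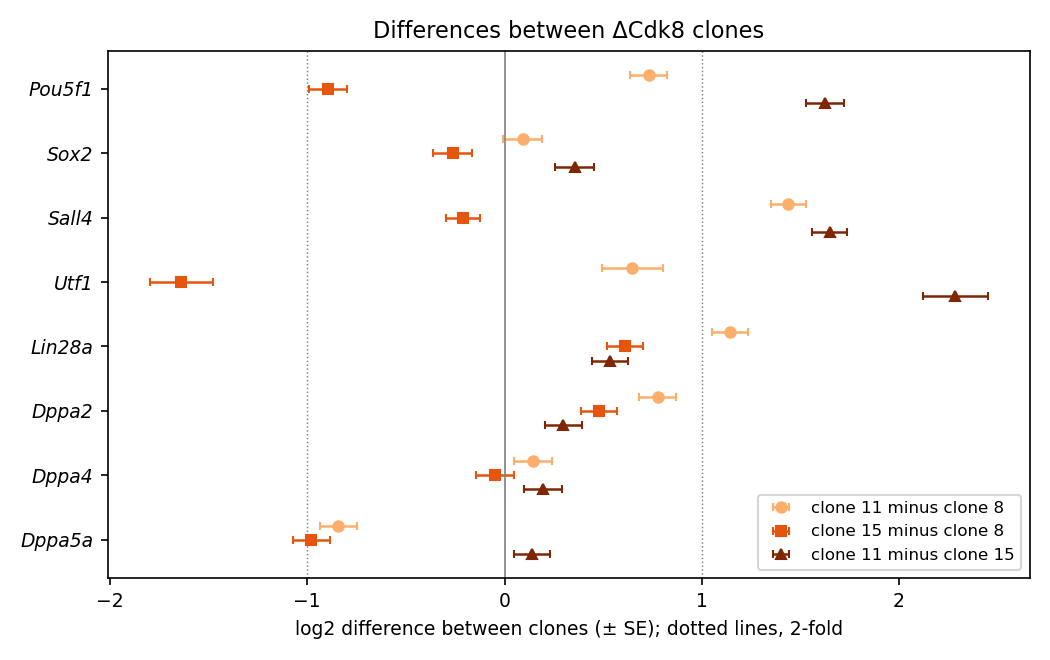
Log2 differences between pairs of ΔCdk8 clones (edgeR, ± SE, induced and uninduced library of each clone with induction as a covariate); dotted lines mark 2-fold. Utf1, Sall4 and Pou5f1 lie beyond 2-fold for clone 11 against clone 15, at 2.29, 1.65 and 1.63, whereas Dppa4 and Sox2 stay within 0.36.

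The same test among wild-type numbers, with 2 libraries for each number, was added after the values had been seen. It called 0 of 8 members with edgeR and 1 with DESeq2 (Utf1), against 2.51% of 14446 genes with edgeR and 7.52% with DESeq2, and at an adjusted p under 0.05 with no fold limit it gave 5 members (Sall4, Lin28a, Dppa4, Dppa5a and Utf1), against 19.0% of all genes. Between any pair of numbers, the largest difference was that of Utf1, 1.49 on the log2 scale (edgeR adjusted p over the 3 numbers = 0.0174), and the next that of Dppa5a, 0.98 (edgeR adjusted p over the 3 numbers = 0.0462). Wild-type 1 was the lowest for Sall4, Lin28a and Utf1 and the highest for Dppa4 and Dppa5a, in uninduced and induced cells alike.

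Markers of differentiated lineages were checked beside these differences, since a culture can hold cells that have left the pluripotent state. The summed TPM of 18 such markers was 45.8 to 146 in uninduced and 24.9 to 192 in induced wild-type libraries, and 98.6 to 535 in uninduced and 97.9 to 467 in induced clones. Most of the sum was Krt8 and Krt18, keratins of simple epithelia such as trophectoderm. Krt18 was 69.6, 17.4 and 27.3 TPM in uninduced wild-type 1, 2 and 3 and 107, 35.7 and 320.4 TPM in uninduced clones 8, 11 and 15. It was thus highest in clone 15 and, among wild-type libraries, in wild-type 1. The markers did not share this order. Among uninduced wild-type libraries, Krt8 and Gata4 were also highest in wild-type 1, whereas Sox1 and Pax6 were lowest there. Among uninduced clones, Krt8 and Gata4 were also highest in clone 15, whereas Thy1 was lowest there. Eomes, a T-box factor of mesendoderm and trophoblast, reached 14.1 TPM in uninduced clone 8, and the endoderm factor Gata4 reached 5.42 TPM in uninduced clone 15. Both were higher in each uninduced clone than in each uninduced wild-type library. Thy1 reached 31.2 TPM in induced clone 11, Gata6 3.86 TPM in induced wild-type 1, Elf5 3.22 TPM in uninduced clone 8, Sox1 2.79 TPM in uninduced wild-type 2, and the collagen genes Col1a1 and Col1a2 3.36 and 3.67 TPM in uninduced clone 15. The other 8 markers stayed under 2 TPM in all 12 libraries, and of these Neurog2, T, Foxa2 and Sox17 stayed under 0.5 TPM. The part of other cell types in the differences between clones was not tested.

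To place the members among related genes, lists of naive-state factors, primed-state genes, OCT4 and SOX2 targets, let-7 and LIN28 targets, DPPA2 and DPPA4 targets and relatives of the members were read from the same fits. The lists share genes: Sox3 and Pou3f1 count among both relatives and primed-state genes, Sox1 among relatives and lineage markers, and Nanog among naive-state factors and OCT4 and SOX2 targets. In uninduced cells edgeR called 0 genes of any list for genotype, and the counts that follow use an unadjusted p under 0.05, at which 11.9% of all genes tested were higher and 8.49% lower. Of 12 naive-state factors 4 were higher and 0 lower in ΔCdk8 cells, and 11 had a fitted mean above wild-type, with a median log2 fold change of 0.71. Tbx3, a T-box factor of the naive network, had the largest value at 2.46 ± 0.32 (edgeR adjusted p = 0.101), and Dppa3, which protects DNA methylation in the early embryo, the lowest at -0.77 ± 0.37. Of 8 primed-state genes 7 were lower and 1 higher (8.49% and 11.9% of all genes), with a median of -2.04, from -3.14 ± 0.91 for the growth factor gene Fgf5 to 2.81 ± 0.63 for the Nodal antagonist gene Lefty2.

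Targets shared by OCT4 and SOX2 showed no common direction, with 6 of 12 above and 6 below wild-type. The lowest was the zinc finger gene Zscan10 at -1.16 ± 0.59 and the highest Lefty1 at 2.14 ± 0.95, a log2 fold change in each case. Among 12 let-7 and LIN28 targets 10 lay below wild-type, 4 of them lower and 2 genes higher at an unadjusted p under 0.05. Mycn, a MYC family gene, had the lowest value at -1.35 ± 0.58, and Hmga2, a chromatin architectural gene, the highest at 2.63 ± 0.35 (edgeR adjusted p = 0.101). Of 12 relatives of the members 6 were lower and 0 higher (8.49% and 11.9% of all genes), including Lin28b at -1.13 ± 0.24 (edgeR adjusted p = 0.130). Sox3 was the lowest of them at -2.68 ± 0.97 and Sox15 the highest at 1.32 ± 0.63.

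Of 8 targets of DPPA2 and DPPA4 in the Zscan4 and Dux group, 2 passed the filter on low counts, Zscan4c and Zscan4f. Both passed through clones 8 and 15, where they were high, so their difference from wild-type is given as levels with no test. Zscan4c was 0.106, 0.282 and 0 TPM in uninduced wild-type 1, 2 and 3 and 2.36, 0.048 and 4.06 TPM in uninduced clones 8, 11 and 15. Together the 8 targets summed to 0.106 to 1.65 TPM in uninduced wild-type and 0.559 to 16.1 TPM in uninduced ΔCdk8 libraries. They were thus low in wild-type cells and most variable among the clones. Of 18 lineage markers 14 passed the filter, which a low gene can do through the group where it is higher, so their counts support nothing: 2 were higher and 1 lower (11.9% and 8.49% of all genes), from Sox1 at -2.40 ± 0.86 to Gata4 at 2.22 ± 0.67.

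**Figure D4:**
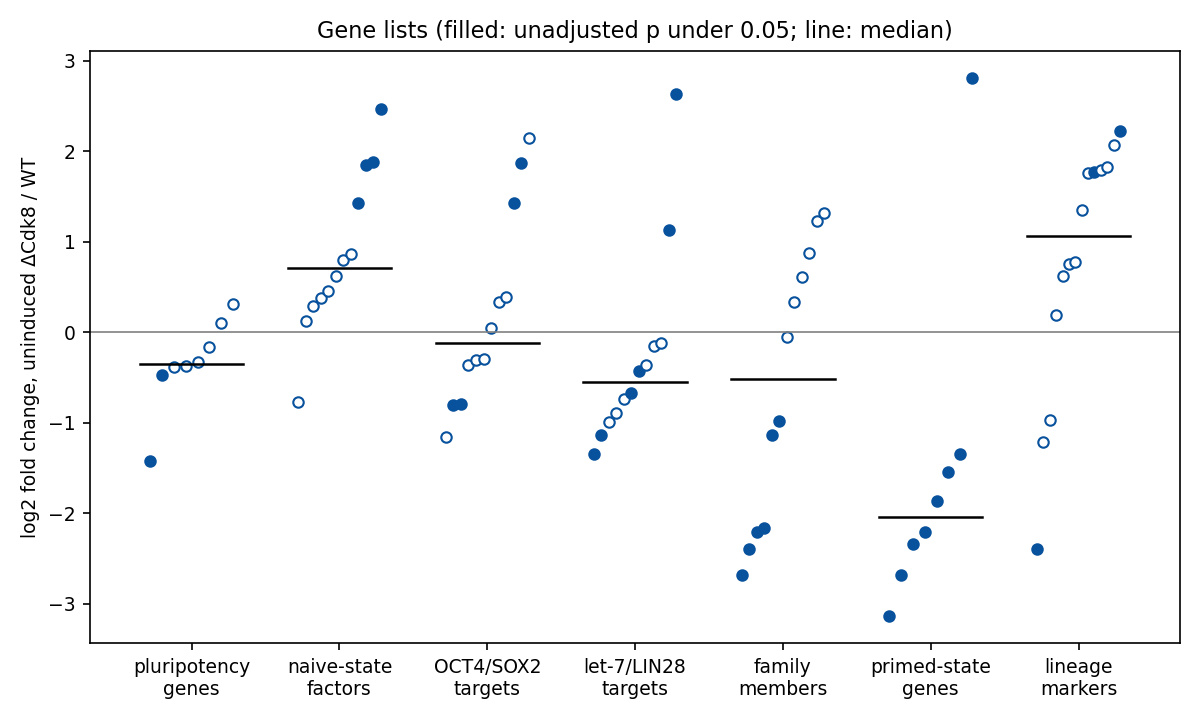
Log2 fold change of uninduced ΔCdk8 against uninduced wild-type cells (edgeR) for each gene of 7 lists; filled points have an unadjusted p under 0.05 and horizontal lines are medians. The members have a median of -0.35, between naive-state factors at 0.71 and primed-state genes at -2.04, and no gene shown passed the adjusted threshold.

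After induction in wild-type cells, Tbx3 was the naive-state factor called higher, at 2.33 ± 0.26 unpaired (edgeR adjusted p = 0.0062), against 0.15% of all genes. In the paired fit 4 of 8 primed-state genes were called lower, Sox3, Lefty2, Pou3f1 and Otx2, at -3.68, -2.65, -1.27 and -1.23 on the log2 scale, against 2.48% of all genes. Sox3 lies on the X chromosome, whose genes had medians between -1.90 and -1.49 in the induced wild-type libraries. In the paired fit of ΔCdk8 cells 2 primed-state genes were called lower, Fgf5 at -1.96 and Otx2 at -1.09, against 1.27% of all genes. Of 12 OCT4 and SOX2 targets, the paired fits called 1 lower in wild-type and 2 lower in ΔCdk8 cells. Of 12 relatives of the members, 2 were called lower in wild-type cells. No member was called in either paired fit, and Lin28a, at -0.42 in wild-type cells, was the member with the lowest value. The paired interaction called 1 naive-state factor lower and 1 primed-state gene higher, against 0.218% and 0.78% of all genes. Between clones, 10 of 12 OCT4 and SOX2 targets, 5 of 12 naive-state factors and 5 of 12 let-7 and LIN28 targets were called, against 25.5% of all genes tested, among them Lefty1 at 4.14, Klf2 at 3.18 and Mycn at 2.18 as largest log2 differences. Of the other lists, 10 of 12 relatives of the members and 6 of 8 primed-state genes were called.

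Utf1, the member with the widest range, was compared with 9597 genes of mean TPM at least 5 for likeness of pattern over the 12 libraries. By root mean square difference of centred log2 TPM, the nearest were Dohh_1 at 0.180, Sf3b5 at 0.198 and Ahdc1 at 0.201, whereas the nearest members were Pou5f1 at 0.474 and Sall4 at 0.497. Dohh_1 was 33.4, 62.1 and 58.6 TPM in uninduced wild-type 1, 2 and 3 and 48.2, 47.2 and 21.6 TPM in uninduced clones 8, 11 and 15. As for Utf1, the lowest value of each genotype was that of wild-type 1 and clone 15. The points share libraries and depth, and the likeness is a description over these samples.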

How the data were processed

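PolyA RNA of 12 libraries was sequenced from stranded libraries, and groups, clones and wild-type numbers were taken from the sample titles and genotypes. The authors mapped the reads in the CLC Genomics Workbench to the Ensembl GRCm38 reference and deposited a gene table for each library. Total reads per gene were deposited as raw counts, given also for exons, introns, junctions and uniquely mapped reads. TPM values were computed by the authors from exon reads and exon length; the deposited RPKM values were not used. The deposited fraction columns (unique over total exon reads, intron over total gene reads) entered no test. Percentages of unique and intron reads were computed here from the counts.

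Gene reads were tested over all genes with edgeR 4.0.16 in R 4.3.3 (TMM, filterByExpr at 10 counts and a total of 15, quasi-likelihood test, two-sided, Benjamini-Hochberg adjustment over all genes tested). All 8 members passed the filter in every comparison. The SE of a log2 fold change is its size over the square root of the F statistic. DESeq2 1.42.0 and limma 3.58.1 (limma-trend on log2(TPM + 1) or log2(TPM + 0.1)) were alternatives, beside other scalings, filters and read classes, a replicate block and leaving out each library. TPM sums and patterns used Python 3.11.15, numpy 2.4.6 and pandas 2.3.3, and figures matplotlib 3.10.9. The pipeline was tested on simulated data.

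Same-numbered induced and uninduced libraries were taken as pairs, for the clones because a clone is 1 cell line. Wild-type libraries were paired by number alone, and the labels do not say whether libraries of the same number share a culture. Over 12131 genes, deviations of same-numbered libraries from the group means correlated at 0.876 to 0.922 for clones and 0.613 to 0.717 for wild-type numbers. Different numbers correlated at -0.735 to 0.0118 for clones and -0.671 to 0.440 for wild-type, the highest being uninduced 2 with induced 3.

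The members and gene lists were chosen with earlier results of these data known. Named were all members, up to 4 called genes and the largest rise and fall of each list in the comparisons described, Cdk8 and Cdk19, and the 3 genes nearest in pattern to the member of widest range. Some called genes of the lists are given as counts only. Markers named beside the clone differences were chosen after their values were seen. Comparisons that share libraries are not independent.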

Additional observations from a re-analysis of the deposited data

Results flagged for a closer look

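With libraries paired by wild-type number and clone, the interaction of Lin28a passed an adjusted p under 0.05 with no fold limit. This rule was chosen after seeing the data, and 3.55% of all genes tested passed it in the same direction. At the study's threshold Lin28a was not called. The interaction was 0.4036 on the log2 scale (SE 0.09, edgeR adjusted p = 0.0356), and it drew attention because the paired change was -0.42 in wild-type cells and -0.03 in ΔCdk8 cells. Lin28a was lower after induction in 3 of 3 wild-type pairs and in 2 of 3 clones. Without pairing the interaction was 0.37 ± 0.51 and did not pass. Over all settings other than leaving out a library it lay between 0.069 and 0.40, so the paired value is the highest.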

How the results depend on the processing

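Members called kept their count under nearly every setting. For the genotype comparisons, ΔCdk8 induction and the interaction, most unpaired edgeR and limma settings called few genes or none. A count of 0 members could hardly change there, so it says little about processing. For uninduced genotypes DESeq2 called 1 member lower (Lin28a) against 0. With the replicate block and an adjusted p under 0.05 with no fold limit, chosen after seeing the data, counts went from 0 to 4 higher and 1 lower for wild-type induction, 1 higher for ΔCdk8 induction and 1 higher for the interaction; the block changed no call at the study's threshold. In wild-type induction the adjusted p ranged over the settings from 0.00798 to 0.274 for Dppa4, 0.00907 to 0.987 for Lin28a, 0.0341 to 0.638 for Dppa2, 0.0353 to 0.256 for Sox2 and 0.0468 to 0.911 for Sall4. Among clones, 4 called members became 7 at an adjusted p under 0.05 with no fold limit and 2 with limma on log2(TPM + 0.1). Among wild-type numbers 0 became 5 at that adjusted p, 1 with no filter, with DESeq2 or with intron reads, and 0 to 2 leaving out a library.

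Over all genes tested, DESeq2 called 264 higher and 122 lower for uninduced genotypes and 542 and 280 for induced ones, where edgeR called 0; for wild-type induction edgeR called 21 and 141, DESeq2 222 and 440, and the block 206 and 347; for ΔCdk8 induction the block called 20 and 188 and DESeq2 0 and 36, where edgeR called 0. Scaling by library size alone moved the median of all genes from 0.03 to 0.15 for both genotype comparisons.

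Signs of some members reversed, among them values as far from 0 as Utf1 in wild-type induction (0.44), Dppa5a in the interaction (-0.34) and Dppa5a for induced genotypes (-0.25). For induced genotypes, Pou5f1 became 0.00464 and Sox2 0.034 with library size only, Sox2 0.0903 and 0.0907 with limma at the 2 pseudocounts, and Dppa5a 0.62 with intron reads. For wild-type induction Pou5f1 became 0.00799 with exon, 0.044 with unique and 0.036 with intron reads. For ΔCdk8 induction, intron reads gave Pou5f1 -0.00879, Sall4 -0.11, Lin28a 0.066 and Dppa2 0.36; limma gave Dppa5a -0.0212 and Utf1 -0.0380 or -0.0392, and the replicate block Utf1 -0.00392. For the interaction, intron reads gave Pou5f1 -0.052 and Dppa5a 0.29. Sox2 has no intron reads and no such value.

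Leaving out a library turned the sign for uninduced genotypes of Pou5f1 (-0.68 to 0.14 over the omissions; positive without clone 15) and Dppa5a (-0.22 to 0.70; negative without wild-type 2 or 3 or clone 8), for induced genotypes of Pou5f1 (-0.54 to 0.24; positive without wild-type 3 or clone 15) and Sox2 (-0.21 to 0.11; positive without wild-type 2), and for wild-type induction of Pou5f1 (-0.14 to 0.16) and Utf1 (-0.10 to 0.79; negative without induced wild-type 2). For ΔCdk8 induction, unpaired, the ranges were -0.38 to 0.57 for Pou5f1, -0.012 to 0.19 for Sox2, -0.67 to 0.75 for Sall4, -0.33 to 0.31 for Lin28a, -0.24 to 0.16 for Dppa2, -0.39 to 0.35 for Dppa5a and -0.49 to 0.66 for Utf1. For the interaction they were -0.025 to 0.16 for Pou5f1 and -0.52 to 0.084 for Utf1. Without a sign change, leaving out a library moved Sall4 between -1.0 and -0.060 (uninduced genotypes) and between -1.26 and -0.19 (induced), Utf1 between -0.77 and -0.018 and between -1.30 and -0.090, and Dppa5a in induced cells between -0.66 and -0.060; the lowest Sall4 and Utf1 values came without clone 11. Lin28a in the genotype comparisons stayed between -1.81 and -1.16 (uninduced) and between -1.35 and -0.85 (induced). For uninduced genotypes Sox2 moved between 0.17 and 0.43 and Dppa2 between -0.70 and -0.30. For wild-type induction, unpaired, Lin28a moved between -0.63 and -0.23, Dppa5a between 0.093 and 0.96 and Sall4 between 0.0058 and 0.46.
The cause of these reversals was not tested. Pou5f1 rests on exon reads of which 67.2% to 76.3% were unique.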
